A study of Mus musculus with 4 samples.

Results

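The clustered protocadherins are cell adhesion genes that lie in 3 neighbouring arrays, named alpha, beta and gamma, within 1 Mb of mouse chromosome 18. All protein-coding genes with symbols starting Pcdha, Pcdhb or Pcdhg in that 1 Mb region were taken, which gave 57 of 21887 protein-coding genes. There were 14 alpha, 22 beta and 21 gamma genes, and they ran from 36930285, the start of Pcdha1, to 37841873, the end of Pcdhgc5 (build mm10). H3K9me3, a histone mark found on silenced chromatin, had been mapped in muscle stem cells of mice, grown in culture, by sequencing of immunoprecipitated native chromatin. The deleted culture had the genotype label Setdb1lox/lox;Pax7GakaCreERT3 and received 4-hydroxytamoxifen, which switches on the Cre recombinase that cuts Setdb1. The control culture had the genotype label Setdb1lox/lox;Pax7GakaCreERT2 and received ethanol, and both were collected after 72 h. The comparison addresses where the mark lies once Setdb1, a gene for an H3K9 methyltransferase, has been targeted in these cells.

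Both cultures carried loxP-flanked Setdb1 and a Cre recombinase that the labels tie to Pax7, a transcription factor gene of muscle stem cells. The last digit of the genotype labels differed, and no source used here says whether the alleles did. The cells are described as a primary line sorted with magnetic beads. The sources used here give no age, sex or number of animals. Each condition had 1 H3K9me3 library and 1 input library, and the inputs were not analysed here. With 1 library per group no difference below has a replicate check, and no p-value was computed.

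Each protocadherin gene of the alpha and gamma arrays starts with its own variable exon, which has its own promoter and encodes the extracellular cadherin repeats, the membrane span and part of the cytoplasmic tail. The variable exon is spliced to constant exons that all genes of the array share. The beta genes have no constant exons, and each is essentially a single exon. In neurons, a cell switches on a small and largely random choice of these promoters, helped by CTCF and cohesin, and the proteins bind like with like so that a neuron can tell its own branches from those of others. The C-type genes Pcdhac1, Pcdhac2, Pcdhgc3, Pcdhgc4 and Pcdhgc5 stand at the ends of their arrays and are used more uniformly across neurons. SETDB1 and H3K9me3 are known to act on this cluster in mouse neurons.

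The deleted list held 113503 broad peaks on the main chromosomes and the control list 105709. Median peak width was 854 bp in the deleted list and 904 bp in the control list. The share of peaks with a −log10 q of 2 or more, in the authors' own scoring, was 11.5% of the deleted list and 18.8% of the control list. A difference in the mark cannot be told apart from one in sequencing depth, which the files do not give. A change in the share of cells that carry the mark cannot be told apart from a change in the mark per cell. Setdb1 itself, on chromosome 3 from 95323525 to 95357202, had 0% of its gene window under peaks in the deleted list and 0.888% in the control list, which does not measure how far the gene was cut. None of the 10 muscle stem cell and myoblast marker genes had a peak in its window in either list. Among all protein-coding genes, 30.1% had one in the deleted list and 29.0% in the control list. In each list a window peak was found for 1 of 4 endothelial, 1 of 4 mesenchymal and 1 of 4 glia and neuron markers. Of 3 immune markers, 2 had one in the deleted list and 1 in the control list. Peaks do not measure expression, so the labelled cell type was not tested by them.

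More of the protocadherin cluster lay under peaks than of the rest of its chromosome in both cultures, and the deleted culture had slightly more of it covered. Windows reached from 5 kb before a gene to 5 kb after it, and the coverage of a window is the percent of its bases under peaks. With each base counted once, the 57 windows spanned 661 kb. Peaks covered 23.0% of them in the deleted list, or 152 kb in 93 peaks. They covered 19.7% in the control list, or 130 kb in 81 peaks. The ratio of deleted to control was 1.17. On the rest of chromosome 18, from its first peak to its last, coverage was 5.64% in the deleted list and 5.15% in the control list, a ratio of 1.09. The cluster was uneven. Over the 10 bins of 100 kb that hold it, coverage ran between 0% and 46.1% in the deleted list and between 0% and 38.6% in the control list, beside medians of 1.16% in the deleted list and 1.09% in the control list over 27231 bins of the genome. With only peaks at a −log10 q of 3 or more, cluster coverage was 0.674% in the deleted list and 0.805% in the control list. The deleted and control lists shared 75.3 kb, which was 49.5% of the deleted bases and 57.9% of the control bases in the cluster.

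Nearly every member had the mark nearby. A peak lay in the window of 54 of 57 members in the deleted list, against a background of 30.1% of all protein-coding genes. It lay in the window of 52 of 57 members in the control list, against a background of 29.0%. Mean window coverage of the members was 18.2% in the deleted list and 16.7% in the control list, beside 2.89% in each list over all protein-coding genes. Alpha and gamma windows were 32328 to 267373 bp long, and longer windows meet a peak more easily. The background was not matched for length. The windows are also far from independent. Alpha genes share their right ends within 1240 bp and gamma genes within 10 bp, so an upstream gene contains those after it. The 57 windows add up to 5729 kb against the 661 kb they truly cover, and 20 of 22 beta windows overlap another beta window. For this reason whole arrays and segments that belong to 1 gene were described beside the windows.

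**Figure D1:**
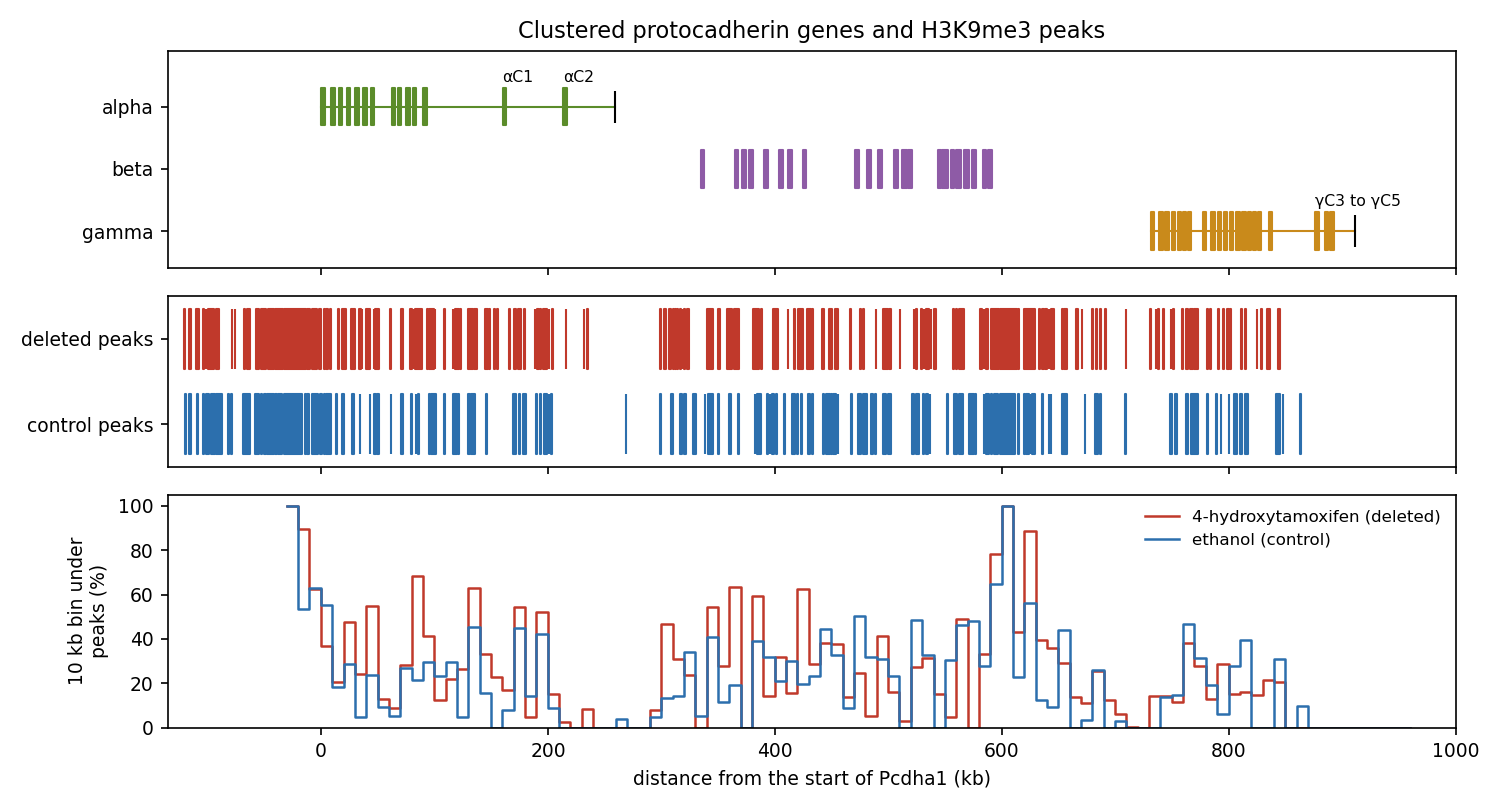
Top, the 57 genes along the cluster, each drawn as the 3 kb from its start or, for beta genes, as the gene, with black ticks at the shared ends of the alpha and gamma arrays. Middle, H3K9me3 peaks of the deleted and the control culture. Bottom, the percent of each 10 kb bin under peaks, in both cultures, against distance from the start of Pcdha1 in kb. Peaks run from about 120 kb before Pcdha1 to the gamma array in both cultures and end before Pcdhgc3.

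The marked stretch did not stop at the gene borders. It began 9.69 kb past the end of Zmat2 in the deleted list and 10.8 kb past it in the control list, about 120 kb before Pcdha1 (121 kb in the deleted culture and 120 kb in the control culture). The last peak before Zmat2 lay 255 kb away in both lists. Between Zmat2 and Pcdha1, a stretch of 131 kb with no protein-coding gene, peaks covered 51.0% of bases in the deleted list and 49.4% in the control list. The widest peak of the locus lay there, 19.3 kb wide at chr18:36897486-36916740 in the deleted list and 15.1 kb wide at chr18:36897879-36912992 in the control list. The second widest lay about 7 kb past Pcdhb22, the last beta gene, and was 14.9 kb wide in the deleted list and 13.2 kb wide in the control list. The control peaks at these sites lay inside the deleted-list peaks over 100% and 99.2% of their length.

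The other edge fell inside the gamma array. The last peak ended 31.0 kb before Pcdhgc3 in the deleted list and fell 12.5 kb short of it in the control list. The next peak along the chromosome began 515 kb past the cluster in the deleted list and 517 kb past it in the control list. Pcdhgc3, Pcdhgc4 and Pcdhgc5, the C-type genes of the gamma array, therefore had 0% of their windows under peaks in both lists, and they were the 3 members with no peak in either. The genes that follow the cluster, among them Diaph1, which encodes an actin nucleating formin, and Hdac3, which encodes a histone deacetylase, also had 0% in both lists. Slc25a2 and Taf7, a mitochondrial carrier gene and a gene for a subunit of the general transcription factor TFIID, sit between the beta and gamma arrays. Their bodies held no peak in either list, and peaks covered 5.64% of the Slc25a2 window in the deleted list and 2.68% in the control list.

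Of the 3 arrays, alpha differed most between the cultures. Peaks covered 26.4% of the alpha windows in the deleted list and 18.4% in the control list, a ratio of 1.44 and a difference of 8.09 points. The alpha array held 44 peaks in the deleted list and 32 in the control list. Of the bases under control peaks, 67.1% were also under deleted-list peaks, while 46.5% of the deleted bases were under control peaks. The direction depended on the peak threshold. With only peaks at a −log10 q of 2 or more, alpha coverage was 4.72% in the deleted list and 5.77% in the control list. Over whole libraries that threshold keeps the 11.5% of deleted and 18.8% of control peaks given above, and the part of this in the alpha result was not tested.

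Within the alpha array the mark lay mainly between the variable exons. Exons are not annotated in the table used, so the 3 kb from the start of each gene, the end that other genes do not share, stood for its variable exon. Over the 12 genes from Pcdha1 to Pcdha12 these segments were covered at 7.27% in the deleted list and 6.33% in the control list. The stretches between them were covered at 48.6% in the deleted list and 29.5% in the control list. The difference between the cultures was thus 0.939 points in the segments and 19.2 points between them. Further along the array, coverage stayed higher in the deleted list. From Pcdha12 to Pcdhac1, 33.1% was under peaks in the deleted list and 22.2% in the control list. From Pcdhac1 to Pcdhac2 it was 28.4% in the deleted list and 23.5% in the control list. The last 41.0 kb, from Pcdhac2 to the shared end where the constant exons lie, had 2.11% under 2 peaks in the deleted list and 0% in the control list.

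All 14 alpha windows were covered more in the deleted list, but they share most of their bases and count as far fewer than 14 observations. Pcdha1, the first gene, had the highest coverage in both lists, at 26.6% in the deleted list and 18.4% in the control list, and at a −log10 q of 2 or more it had 4.74% in the deleted list and 5.80% in the control list. Pcdha4 had 25.8% in the deleted list and 16.4% in the control list. Pcdha3 and Pcdha5 both had 25.5% in the deleted list and 16.1% in the control list. The windows of the C-type genes lay lower. Pcdhac1 had 15.4% in the deleted list and 11.0% in the control list, and Pcdhac2 had 2.08% in the deleted list and 0% in the control list. The nesting enters here too, since the Pcdhac1 window contains the nearly unmarked stretch past the start of Pcdhac2. From its own start to that of Pcdhac2, Pcdhac1 had 26.8% in the deleted list and 22.2% in the control list. The medians of such stretches over the 14 alpha genes were 31.1% in the deleted list and 17.6% in the control list. At a −log10 q of 2 or more, the Pcdhac1 window had 0% in the deleted list and 6.03% in the control list.

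Splitting the alpha array into 1 segment per gene, from its start to the start of the next, removed the nesting. Of 14 segments, 11 had higher coverage in the deleted list, 2 had lower and 1 equal coverage, and the median was 31.1% in the deleted list and 17.6% in the control list. The widest gaps, picked after their values were seen, were at Pcdha11 and Pcdha6. The Pcdha11 segment was covered at 65.9% in the deleted list and 17.5% in the control list. The Pcdha6 segment was covered at 52.6% in the deleted list and 8.07% in the control list. Pcdha1 and Pcdha9 went the other way, with 41.4% and 21.7% in the deleted list against 58.7% and 30.5% in the control list. Pcdha8 had no peak in its segment in either list. The segments differ in length, between 5413 bp at Pcdha8 and 9372 bp at Pcdha11 among those named.

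**Figure D2:**
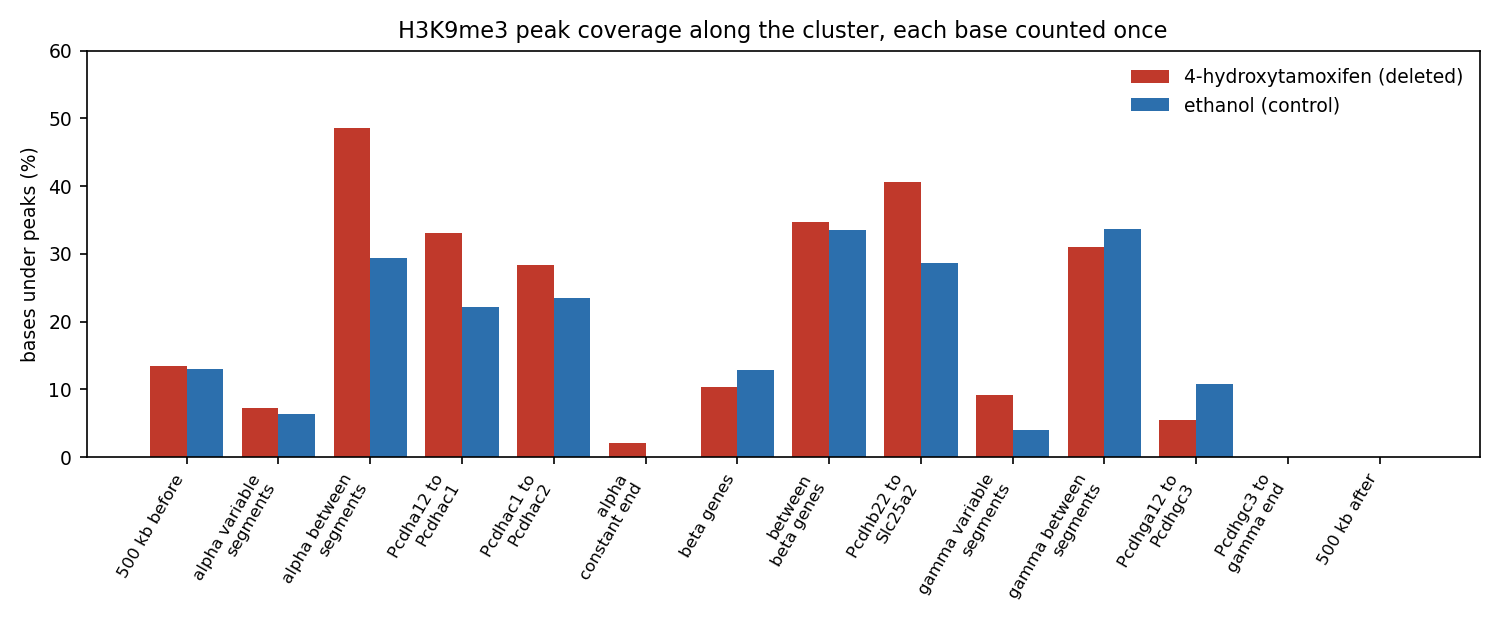
Percent of bases under H3K9me3 peaks (vertical axis) in consecutive parts of the cluster and 500 kb on either side, with the deleted culture as the left bar and the control culture as the right bar of each pair. Coverage is low in variable segments and beta gene bodies, higher between them, and at or near 0 in the alpha constant end, from Pcdhgc3 to the gamma end, and in the 500 kb after the cluster.

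The beta array had similar totals in both cultures, made up partly of different bases. Peaks covered 28.2% of the beta windows in the deleted list and 28.0% in the control list, in 27 deleted-list and 35 control peaks. The lists shared 54.5% of the deleted bases and 55.0% of the control bases. Peaks at a −log10 q of 2 or more covered 11.4% in the deleted list and 8.76% in the control list. Gene bodies were covered less than the stretches between them. In the 22 bodies, 10.3% of bases were under peaks in the deleted list and 12.9% in the control list. Between the genes it was 34.8% in the deleted list and 33.5% in the control list. No peak touched the body of 15 of 22 beta genes in the deleted list or of 12 of 22 in the control list. Over all 21887 protein-coding genes, with or without a peak nearby, it was 17207 in the deleted list and 17436 in the control list.

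Low bodies were also common in other genes of this size. Among beta genes with a peak in the window, the body was covered less than the flanks in 90.9% in the deleted list and in 85.7% in the control list. Among the 456 other protein-coding genes of the same lengths with a peak in either list, it was covered less than the flanks in 77.3% of those with a peak in the deleted list and in 73.9% in the control list. Among olfactory receptor genes, another large clustered family of mostly single coding exons, the shares were 79.4% in the deleted list and 79.6% in the control list. Bodies wholly free of peaks made up 68.2% of beta genes with a window peak in the deleted list and 52.4% in the control list. Among the 456 other genes the shares were 59.6% of those with a peak in the deleted list and 61.9% in the control list. Variable exons of the alpha and gamma arrays and the beta genes resemble each other in sequence. How reads that match several of them were treated is not given in the sources used here, so coverage over them is uncertain.

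Single beta genes differed widely between the lists, in both directions. A difference of 10 points or more in window coverage served as the threshold. Coverage was higher by that much in the deleted list for 6 of the 57 members, against a background of 2.38% of all protein-coding genes. It was lower by that much for 7 of the 57, against a background of 2.52%. All 13 were beta genes. As shares of the 22 beta genes these were 27.3% higher and 31.8% lower. Among the 456 other genes of beta length with a peak, the shares were 10.5% higher and 13.8% lower. Neighbouring beta windows share peaks, and no test of this difference was made. Olfactory receptor genes had 17.3% higher and 25.4% lower. Window lengths differed between the arrays. Beta windows were 12340 to 15271 bp long, and alpha and gamma windows 32328 to 267373 bp. With 1 segment per gene, 7 alpha, 2 beta and 7 gamma genes were higher by 10 points or more in the deleted list. By that measure 1 alpha, 6 beta and 6 gamma genes were lower. It was not computed over all protein-coding genes.

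Pcdhb8 showed the largest excess in the deleted list. Peaks covered 69.0% of its window in the deleted list and 25.2% in the control list, and its body held no peak in either. In the deleted list the window lay under peaks of 4691 bp and 3827 bp on either side of the gene, and in the control list under 4 peaks of at most 2016 bp. One of those narrow control peaks, 858 bp wide, had the highest −log10 q of all control peaks in the cluster, 3.55. At a −log10 q of 3 or more the window therefore had 0% in the deleted list and 6.95% in the control list.

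Pcdhb2 was the only beta gene wholly under a peak. Its window was covered at 50.8% in the deleted list and 16.5% in the control list, and its body at 100% in the deleted list and 0% in the control list. A single deleted-list peak at chr18:37294305-37298529, with the authors' fold enrichment at 2.67 and −log10 q at 1.51, spanned the gene. At a −log10 q of 2 or more the Pcdhb2 window had 17.7% in the deleted list and 13.9% in the control list. Pcdhb4 had 39.2% in the deleted list and 16.9% in the control list. Its deleted-list value came from 1 peak of 5382 bp that began in the gene, over 12.8% of its body, and ran on past its end.

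Pcdhb10 showed the largest deficit. Its window had 12.6% under peaks in the deleted list and 41.7% in the control list, with no peak over the body in either. None of these peaks reached a −log10 q of 2 in either list, and the same was so at Pcdhb20 and Pcdhb4. Pcdhb5 had 11.6% in the deleted list and 38.1% in the control list, and at a −log10 q of 2 or more it had 2.39% in the deleted list and 0% in the control list. Pcdhb20 had 7.78% in the deleted list and 36.0% in the control list, and its body 0% in the deleted list and 53.9% in the control list. A control peak at chr18:37501447-37505428, with no overlapping peak in the deleted list, reached into the windows of both Pcdhb19 and Pcdhb20. These neighbouring deficits are therefore partly the same bases.

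Pcdhb19 had the highest control coverage of any member, at 30.3% in the deleted list and 55.9% in the control list. A peak just before the gene was called in both lists, 4458 bp wide in the deleted list and 4249 bp wide in the control list. In the deleted list it had the highest −log10 q in the cluster, 3.10, and in the control list its value was 2.98. The other control peak of the window, the one shared with Pcdhb20, had a −log10 q of 1.71, and without it the order turned. At a −log10 q of 2 or more the Pcdhb19 window had 30.3% in the deleted list and 28.9% in the control list.

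Both end genes of the beta array were covered somewhat more in the deleted list. Pcdhb1, the first beta gene and the most isolated, had 16.3% in the deleted list and 11.1% in the control list, all of it outside the body. Pcdhb22, the last beta gene, had 60.6% in the deleted list and 53.9% in the control list. At a −log10 q of 2 or more Pcdhb22 had 0% in the deleted list and 51.9% in the control list, since none of its 3 deleted-list peaks reached that threshold. Pcdhb15, named after its values were seen, was the only beta gene without a control peak in its window, and it had 12.0% under 1 deleted-list peak.

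**Figure D3:**
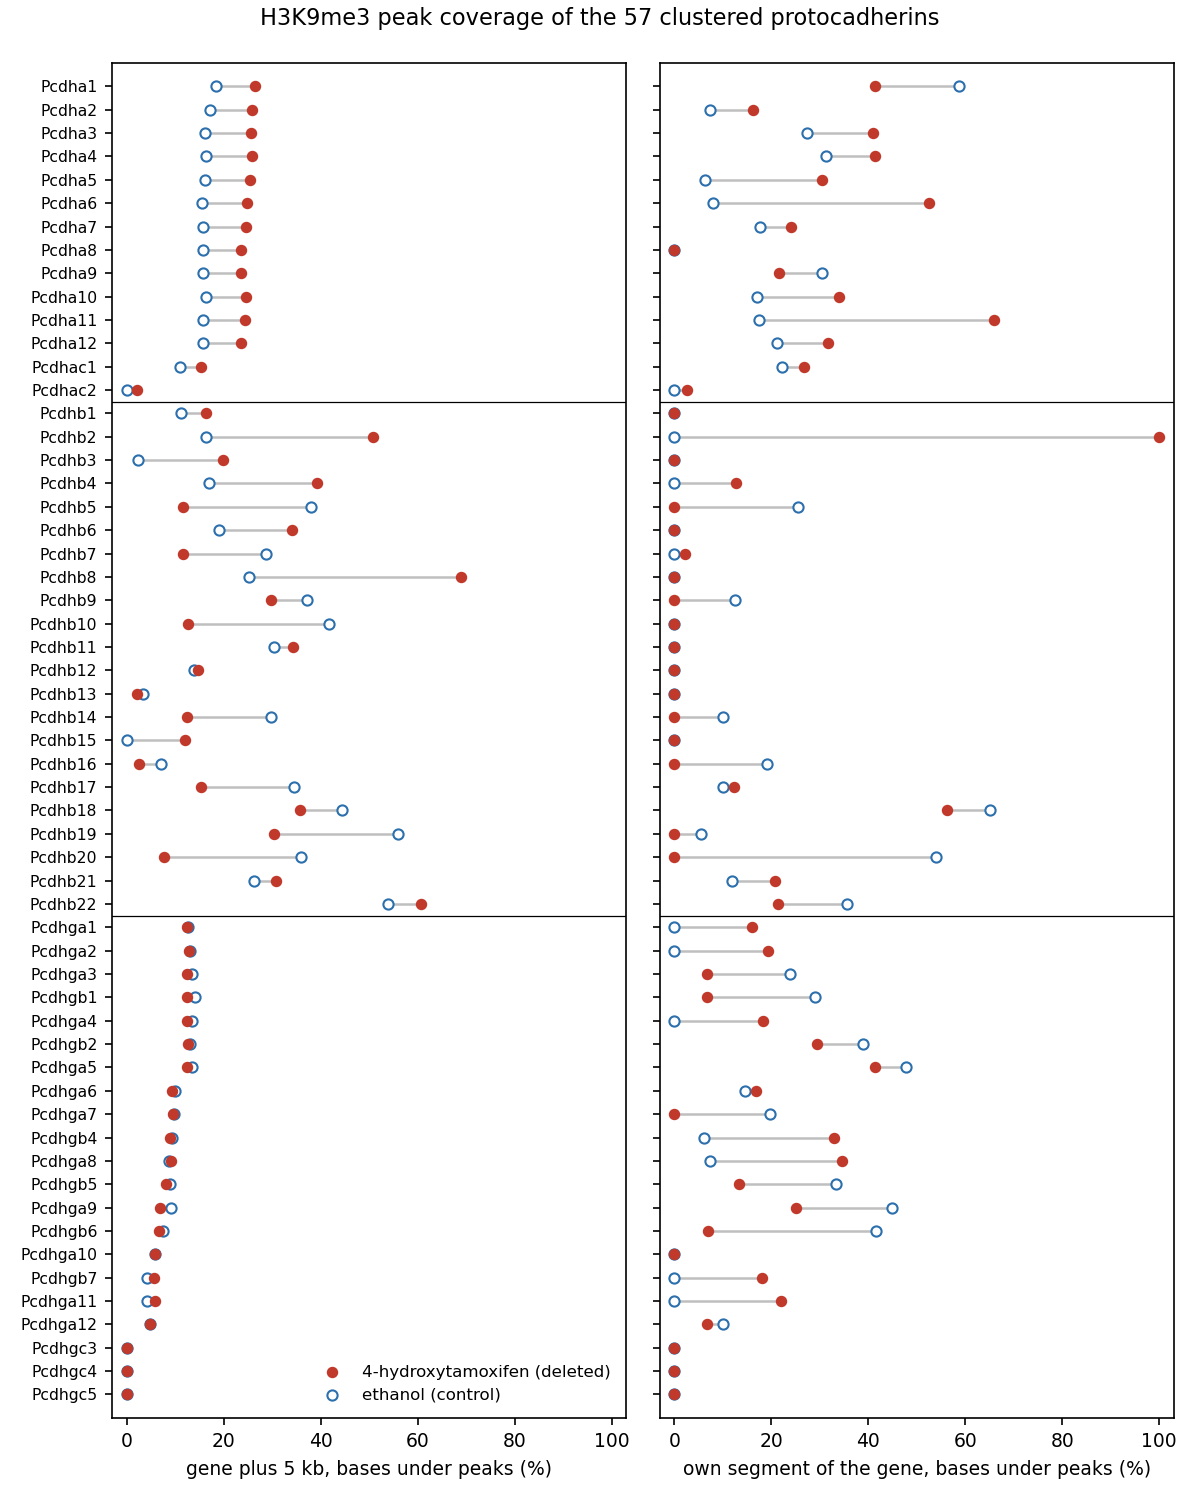
H3K9me3 peak coverage in percent (horizontal axes) of each of the 57 genes, for the gene plus 5 kb (left) and for the segment that belongs to that gene alone (right, the gene body for beta genes), with filled points for the deleted culture and open points for the control culture. Alpha windows all lie higher in the deleted culture, gamma windows nearly coincide, and beta genes differ in both directions.

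The gamma array had the lowest coverage of the 3 arrays, with similar totals in both cultures over all peaks. Peaks covered 12.4% of the gamma windows in the deleted list and 12.6% in the control list. They were split into 22 peaks in the deleted list and 14 in the control list, with a median width of 870.5 bp in the deleted list and 1426.5 bp in the control list. The lists shared 46.6% of the deleted bases and 45.8% of the control bases. Peaks at a −log10 q of 2 or more covered 2.80% in the deleted list and 1.68% in the control list.

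As in the alpha array, gamma peaks covered more of the stretches between the variable segments than of the segments. They still touched the first 3 kb of 9 of 21 gamma genes in the deleted list and of 6 of 21 in the control list. From Pcdhga1 to Pcdhga12, the 18 segments of 3 kb were covered at 9.12% in the deleted list and 4.01% in the control list. The stretches between them were covered at 31.0% in the deleted list and 33.7% in the control list. Between Pcdhga12 and Pcdhgc3 coverage was 5.50% in the deleted list and 10.8% in the control list. From Pcdhgc3 to the end, which holds the C-type exons and the constant exons, it was 0% in both.

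Coverage of the gamma windows was highest near the front of the array and lower further along it in both lists. The windows are nested, and those of later genes contain less of the marked part. Pcdhga1, the first gene, had 12.4% in the deleted list and 12.6% in the control list. Pcdhga2 was highest in the deleted list, with 12.8% there and 13.1% in the control list, and Pcdhgb1 was highest in the control list, with 12.3% in the deleted list and 14.0% in the control list. The largest excesses in the deleted list were small. Pcdhga11 had 5.93% in the deleted list and 4.24% in the control list. Pcdhgb7 had 5.69% in the deleted list against 4.22% in the control list, and Pcdhga8 had 9.16% in the deleted list against 8.82% in the control list. The largest deficit was at Pcdhga9, with 6.90% in the deleted list and 9.07% in the control list, followed by Pcdhgb1 and by Pcdhga4, which had 12.5% in the deleted list and 13.6% in the control list.

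Single gamma segments differed far more than the windows. A segment is shorter than the window of its gene, so a single peak weighs more in it. Of 21 segments, 8 had higher coverage in the deleted list, 9 had lower and 4 equal coverage, and 7 and 6 of these differences passed 10 points. The share of such differences was not computed over all protein-coding genes, so these counts have no background. The Pcdhga8 segment had 34.5% in the deleted list and 7.27% in the control list. The Pcdhga9 segment, 2 genes on, had 25.0% in the deleted list and 44.9% in the control list. Pcdhga1, Pcdhga2 and Pcdhga4 had 15.9%, 19.3% and 18.3% in the deleted list and no peak in the control list. The near-equal total of the gamma array thus combined segments with opposite differences.

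Set around the starts of all 57 genes, the mark was high before the start and low over the first 2.5 kb. Between 1000 and 500 bp before the start, 34.4% of bases were under peaks in the deleted list and 28.5% in the control list. In the first 500 bp of the gene it was 5.65% in the deleted list and 7.94% in the control list. Between 1500 and 2000 bp past the start it was 2.14% in the deleted list and 0% in the control list. By 3000 to 3500 bp it had returned to 27.3% in the deleted list and 29.9% in the control list. Each base here counts once per gene, and the flanks of neighbouring genes can overlap.

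The start itself lay under a peak in 4 of 57 genes in the deleted list and in 5 of 57 in the control list. The first 3 kb held no peak at all in 35 genes in the deleted list and in 39 in the control list. Neither count was computed over all protein-coding genes, so the starts are not shown to be poor in peaks. For scale, mean coverage of 100 kb bins of the genome was 4.91% in the deleted list and 4.89% in the control list. The nearest peak was closer in the deleted list, at a median of 914 bp from the start against 2541 bp in the control list. That list also had more peaks in the cluster, 93 against 81, and the part of this in the distances was not tested. Gamma starts had a median of 401 bp in the deleted list and 2672 bp in the control list, alpha starts 766.5 bp in the deleted list and 2008.5 bp in the control list, and beta starts 1931 bp in the deleted list and 2592 bp in the control list. In the alpha array the bin from 1500 to 1000 bp before the start, picked after its values were seen, differed most. It had 60.9% in the deleted list and 19.3% in the control list. A peak lay there in 10 of 14 genes in the deleted list against 4 of 14 in the control list. For every alpha gene but Pcdha1 this bin lies in the stretches between variable segments given above. Stricter peak thresholds were not applied to it.

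**Figure D4:**
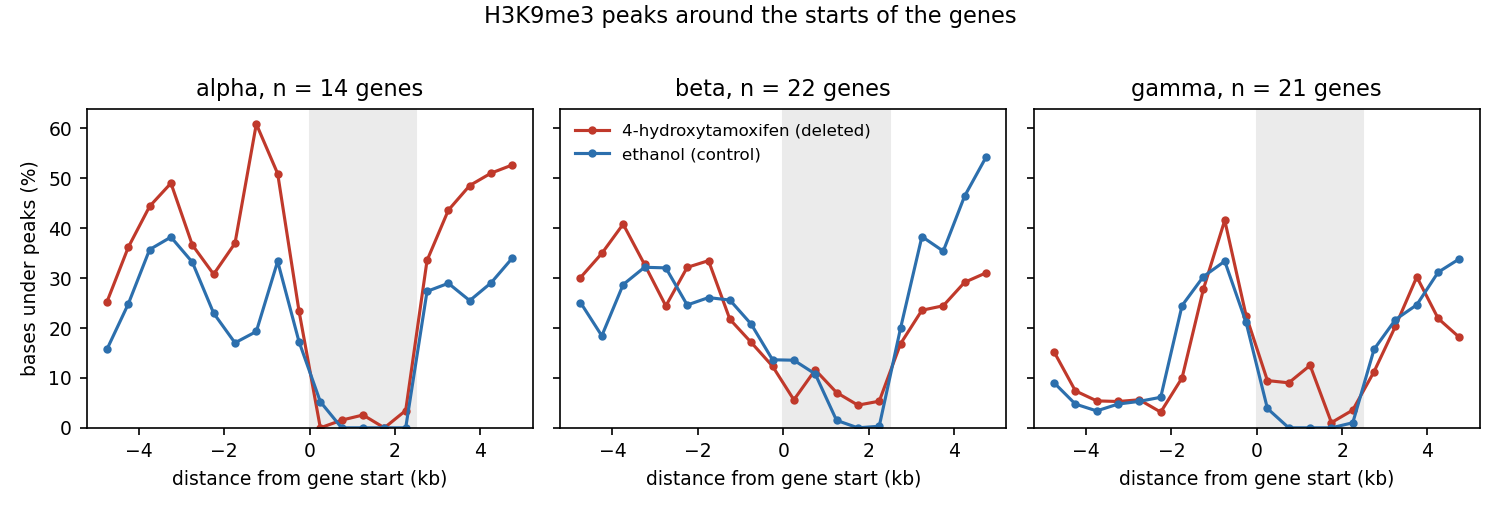
Percent of bases under H3K9me3 peaks in 500 bp bins (vertical axis) against distance from the gene start in kb, for the 14 alpha, 22 beta and 21 gamma genes, in the deleted and the control culture. Grey marks the first 2.5 kb, where coverage is low in all 3 arrays and in both cultures, with higher values just before it and after it.

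Counted over both the alpha and gamma genes, from Pcdha1 to Pcdha12 and from Pcdhga1 to Pcdhga12, the stretches between segments exceeded the segments by 32.0 points in the deleted list (40.1% against 8.13%) and by 26.2 points in the control list (31.5% against 5.30%). The same sign was found with segments of 2 kb and 4 kb. With peaks at a −log10 q of 2 or more the excess was 4.33 points in the deleted list and 6.17 points in the control list. No peak of these parts reached a −log10 q of 3 in either list.

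The peaks of the cluster scored somewhat higher than other peaks of their lists. Median fold enrichment in the authors' scoring was 2.64 in the cluster and 2.59 elsewhere in the deleted list, and 2.63 in the cluster and 2.57 elsewhere in the control list. They were wider than other peaks, with median widths of 1245 bp in the deleted list and 1415 bp in the control list, beside 854 bp elsewhere in the deleted list and 904 bp elsewhere in the control list. Median −log10 q was 1.64 in the cluster and 1.48 elsewhere in the deleted list, and 1.74 in the cluster and 1.60 elsewhere in the control list. A −log10 q of 2 was reached by 20 of 93 peaks (21.5%) in the deleted list, beside 11.5% elsewhere, and by 20 of 81 (24.7%) in the control list, beside 18.8% elsewhere. A value of 3 was reached by 1 deleted-list peak and 3 control peaks.

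Peaks of the cluster had a partner in the other list more often than peaks elsewhere, by simple overlap. In the deleted list 59 of 93 (63.4%, 95% Wilson interval 53.3 to 72.5%) overlapped a control peak, beside 50.1% of the other peaks. In the control list 62 of 81 (76.5%, 66.2 to 84.4%) overlapped a deleted-list peak, beside 53.0%. The intervals cover counting error only and take each peak as independent of its neighbours. Wider peaks meet a partner more easily, and so do peaks where the other list covers more bases. Control peaks covered 19.7% of the cluster windows and 5.15% of the rest of chromosome 18, and deleted-list peaks 23.0% and 5.64%. Neither width nor density was adjusted for, so closer agreement of the lists in the cluster is not shown. By array, 29 of 44 alpha peaks in the deleted list and 29 of 32 in the control list had a partner. In the beta array 21 of 27 in the deleted list and 25 of 35 in the control list had one, and in the gamma array 9 of 22 in the deleted list and 8 of 14 in the control list.

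The 116 kb between Pcdhb22 and Slc25a2, which hold no protein-coding gene other than annotated readthrough genes that span them, were among the more heavily covered parts of the locus. Peaks covered 40.6% of it in the deleted list and 28.7% in the control list, and 87.2% of the control bases were also under deleted-list peaks. The gap between the alpha and beta arrays had 14.3% in the deleted list and 9.67% in the control list. The 500 kb before the cluster had 13.4% in the deleted list and 13.0% in the control list. Nearly all of this lay in the 131 kb between Zmat2 and Pcdha1, with 66.6 of 67.1 kb in the deleted list and 64.5 of 65.0 kb in the control list. That shorter stretch was covered at 51.0% in the deleted list and 49.4% in the control list.

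Protocadherin genes outside the cluster had low coverage. The 12 non-clustered protocadherins, which are single genes spread over the genome, had a peak in the window in 5 of 12 (41.7%) in each list, beside 30.1% of all protein-coding genes in the deleted list and 29.0% in the control list. Their mean coverage was 1.14% in the deleted list and 0.810% in the control list, below the 2.89% of all protein-coding genes in each list. The highest was Pcdh11x in the deleted list, with 7.95% there and 1.09% in the control list. In the control list the highest was Pcdh10, with 3.67% in the deleted list and 6.76% in the control list. Pcdh1 and Pcdh12, which lie on chromosome 18 past the cluster, had 0% in both lists.

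Other large gene families gave a scale for the cluster. The 1110 olfactory receptor genes averaged 16.9% of a window under peaks in the deleted list and 19.0% in the control list. The 397 Zfp genes, many of which encode zinc finger repressors, had 12.6% in the deleted list and 10.9% in the control list. The members' means of 18.2% in the deleted list and 16.7% in the control list were of the same order. Medians set the Zfp genes apart. They were 1.89% for Zfp genes in the deleted list and 1.18% in the control list, and 175 and 179 of them had no window peak. Member medians were 12.6% in the deleted list and 14.0% in the control list, and those of olfactory receptor genes 13.3% and 15.2%.

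Among the 22 genes for regulators and partners of the cluster, a peak lay in the window of 4 (18.2%) in the deleted list, beside 30.1% of all protein-coding genes, and of 8 (36.4%) in the control list, beside 29.0%. None differed by 10 points, and the mean coverage was 0.531% in the deleted list and 1.06% in the control list. Ctcf, Rad21, Smc1a and Smc3, which encode CTCF and cohesin subunits, and Trim28, which encodes a corepressor that brings in SETDB1, had 0% in both lists. Atf7ip, which encodes a SETDB1 cofactor, was the highest, with 7.01% in the deleted list and 13.2% in the control list. It lies on chromosome 6, and its value was not set against the other genes of that chromosome. Smchd1, which encodes a chromatin protein known to repress clustered protocadherins in mice, had 2.70% in the deleted list and 3.35% in the control list.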

How the data were processed

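H3K9me3 was measured in 1 deleted and 1 control culture, for each of which a broad peak list was deposited. Per the submitters' processing notes, the build was mm10, and the tools were MACS2, BWA 0.7.17-r1188 and ChIPseeker 1.30.3. The sources used here do not give the peak calling settings, input use, pooling or the handling of reads that match several sites. The authors' values for a peak are a fold enrichment, which is a linear ratio, a −log10 p-value, a −log10 q-value and a score. Fold and q served only to describe or filter peaks of 1 list. The peak names carry another replicate number than the labels, so lists were assigned by condition. Depth is unknown.

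Genes were placed by a RefSeq table of assembly GRCm38.p6, the assembly behind mm10. It gives no strand or exons, so the lower-coordinate end of a gene is called its start, and the 3 kb from it stood for a variable exon. No sequence of this chromosome is shown. Pcdhgb8, which was not among the protein-coding genes taken from that table, and 3 readthrough genes of other symbols were not members. Coverage was computed per base with Python 3.11.15, pandas 2.3.3, numpy 2.4.6 and scipy 1.17.1, figures with matplotlib 3.10.9, and the code was tested on simulated data.

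The members and lists were chosen with earlier results of these data known. Members named were, in each array, the 3 with the largest excess and the 3 with the largest deficit of window coverage, the highest in each list, those with no peak in either, the first and last, and the C-type genes. No test between conditions was possible with 1 library each. Alternatives covered the peak threshold, list size, joining of peaks, gene flanks, segment length and segments of 1 gene. The contrast of stretches between segments with the segments, and of beta gene bodies with their surroundings, and the set of 456 genes of beta length were chosen after seeing the data. So was the alpha bin from 1500 to 1000 bp before the start.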

Additional observations from a re-analysis of the deposited data

How the results depend on the processing

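Of 46 alternative values for differences of arrays and segments, 34 had the same sign as reported, 6 the opposite sign and 6 were 0, and 22 had the same sign within 1.5 times the size. The threshold gave 5 of the opposite signs and all 6 values of 0. Differences below are deleted minus control. At −log10 q of 2 or more the difference was -1.05 points for the alpha array and 1.12 points for the gamma array. At 3 or more it was -0.131 points for the whole cluster and -0.373 points for the alpha array, and 0 for the gamma array and the variable segments. The constant ends gave 0 at both thresholds. Without the 5 kb flanks the beta array gave -2.62 points. The number of members past 10 points, 13 in the report, was 8 without flanks, 6 at −log10 q of 2, 3 at −log10 q of 3 and 29 when each gene had a segment of its own. Shared bases, 36.4% of those in either list, were 17.7% at −log10 q of 2.

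Stretches between variable segments exceeded the segments by 4.33 points in the deleted list and 6.17 points in the control list at −log10 q of 2, and by 0 points in both at 3. Stretches between beta genes minus beta bodies, 24.5 points in the deleted list and 20.6 points in the control list, were 3.77 points in the control list at −log10 q of 2. At 3 they were -1.86 points in the deleted list and 0.475 points in the control list. For the named members with a difference, 50 of 92 alternative values had the same sign, 20 the opposite sign and 22 were 0, nearly all at stricter thresholds. Among members past 10 points, Pcdhb5 gave 2.39 and Pcdhb19 1.42 points at −log10 q of 2, and Pcdhb8 gave -6.95 and Pcdhb19 30.3 points at 3. Pcdhb22 gave -51.9 points at 2, -26.5 points at 3 and -14.3 points without flanks, and Pcdhga8 gave -0.744 points without flanks. Lists of equal length changed no sign. Fewer peaks enter at stricter thresholds, 1 in the deleted list and 3 in the control list at 3; the cause was otherwise not tested.

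No paired analysis was possible because each condition had 1 library, and leaving out a replicate was likewise not an option. Depth and input were not analysed here, which limits every difference between the lists.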
